A study of Homo sapiens with 12 samples.

Results

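The 40 genes described here encode the machinery that brings proteins into mitochondria, folds and processes them there, and divides or joins the organelles. Their symbols were matched to the array annotation, and a gene was measured by the brightest probe set that carried its symbol and no other. A probe set is a group of short probes for a transcript. Of the 40 genes, 39 had such a probe set and 38 passed the filter against dim probe sets and were tested, among 12132 genes in all. TOMM7, a small subunit of the outer membrane translocase, had no value because its probe set also carried a second symbol. TIMM23, the channel of the presequence translocase, was not tested because its single-symbol probe set averaged 3.75 on the log2 scale, near the floor of 3.6, and its other 3 probe sets shared a second symbol.

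Synovial sarcoma is a soft tissue tumour whose cells carry SS18 fused to SSX1 or SSX2. RNA came from 4 established human synovial sarcoma cell lines, Aska-SS and Yamato-SS with SS18-SSX1 and SYO-1 and Fuji with SS18-SSX2 in the study's description, all grown in RPMI-1640 with fetal bovine serum. ZSTK474, an inhibitor of all class I forms of phosphoinositide 3-kinase (PI3K), was given at 3 or 0.3 µM for 24 h, and the 0 µM cultures received none of it. Each line and dose was hybridised to 1 array, 12 in all, so the line was the replicate (n = 4 per dose). The p-values rest on the spread of the dose changes between lines. With 1 array per line and dose, that spread cannot be told apart from variation between cultures or arrays.

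Most mitochondrial proteins are made in the cytosol. Preproteins cross the outer membrane through the TOM complex, beta-barrel proteins are inserted by the SAM complex, small TIM chaperones guide hydrophobic cargo across the intermembrane space, and the TIM22 and TIM23 translocases of the inner membrane pass cargo into the membrane or the matrix, where the HSP70 motor pulls it in. Processing peptidase, HSP60 and HSP10 then mature the protein, while mitofusins and OPA1 join mitochondria and DRP1 with its receptors divides them.

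All values are log2 of the quantile-normalized array signal, and a gene passed when limma's moderated test, with the cell line as a block, gave a Benjamini-Hochberg adjusted p under 0.05 over the 12132 genes. The arrays of 1 line resembled each other, with correlations of 0.828 to 0.931 between their deviations from the dose means. Of 6 synovial sarcoma markers, 4 (TLE1, BCL2, CD99 and KRT7) were above the filter, while KRT19 and EPCAM were not. The leukocyte markers PTPRC, CD3E, CD14, LYZ and ITGAM were not above it by their mean over the arrays, though CD3E lay between 4.56 and 7.82. Of 3 endothelial markers PECAM1 was above it, between 6.62 and 7.43. The log2 ratio of 3′ to 5′ actin probe sets, a sign of RNA integrity, changed at 3 against 0 µM by 0.18 in Aska-SS, 0.17 in Yamato-SS, 0.02 in SYO-1 and 0.55 in Fuji, and the same ratio for GAPDH by -0.14, 0.14, 0.08 and 0.07 in the same order. Its part in the changes below was not tested, and the counts of calls without Fuji are given beside the main counts of each dose comparison.

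At 3 µM against 0 µM, 25 of the 38 genes were lower, where 21.1% of all genes tested were, and 5 were higher, where 22.6% were. The gene list was chosen with earlier results of these data known, so setting it against all genes is a description and not a test. The changes of the 25 lay between -1.53 and -0.22 on the log2 scale and ran the same way in all 4 lines for each gene, and 4 of them (TOMM40, TIMM8A, TIMM8B and HSPE1) fell by more than 1. The rises ran from 0.31 to 0.97, also in all 4 lines for each of the 5, which were PMPCB, TIMM9, SAMM50, TOMM70 and TOMM20. The test favours changes that are alike in the lines, so this agreement follows in part from the calls. Whether they passed or not, 26 of the 38 fell in all 4 lines (23.9% of all genes) and 6 rose (25.5% of all genes). Without Fuji, 22 were lower and 4 higher, beside 2120 lower and 2231 higher of all 12132 genes. The median change of the 38 genes was -0.39, against 0.01 over all genes, and by line it was -0.48 in Aska-SS, -0.45 in Yamato-SS, -0.24 in SYO-1 and -0.42 in Fuji. The remaining 8 genes changed by -0.20 to 0.22 and did not pass. In bulk RNA from a culture, fewer cells of a kind and less of a transcript per cell cannot be told apart.

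**Figure D1:**
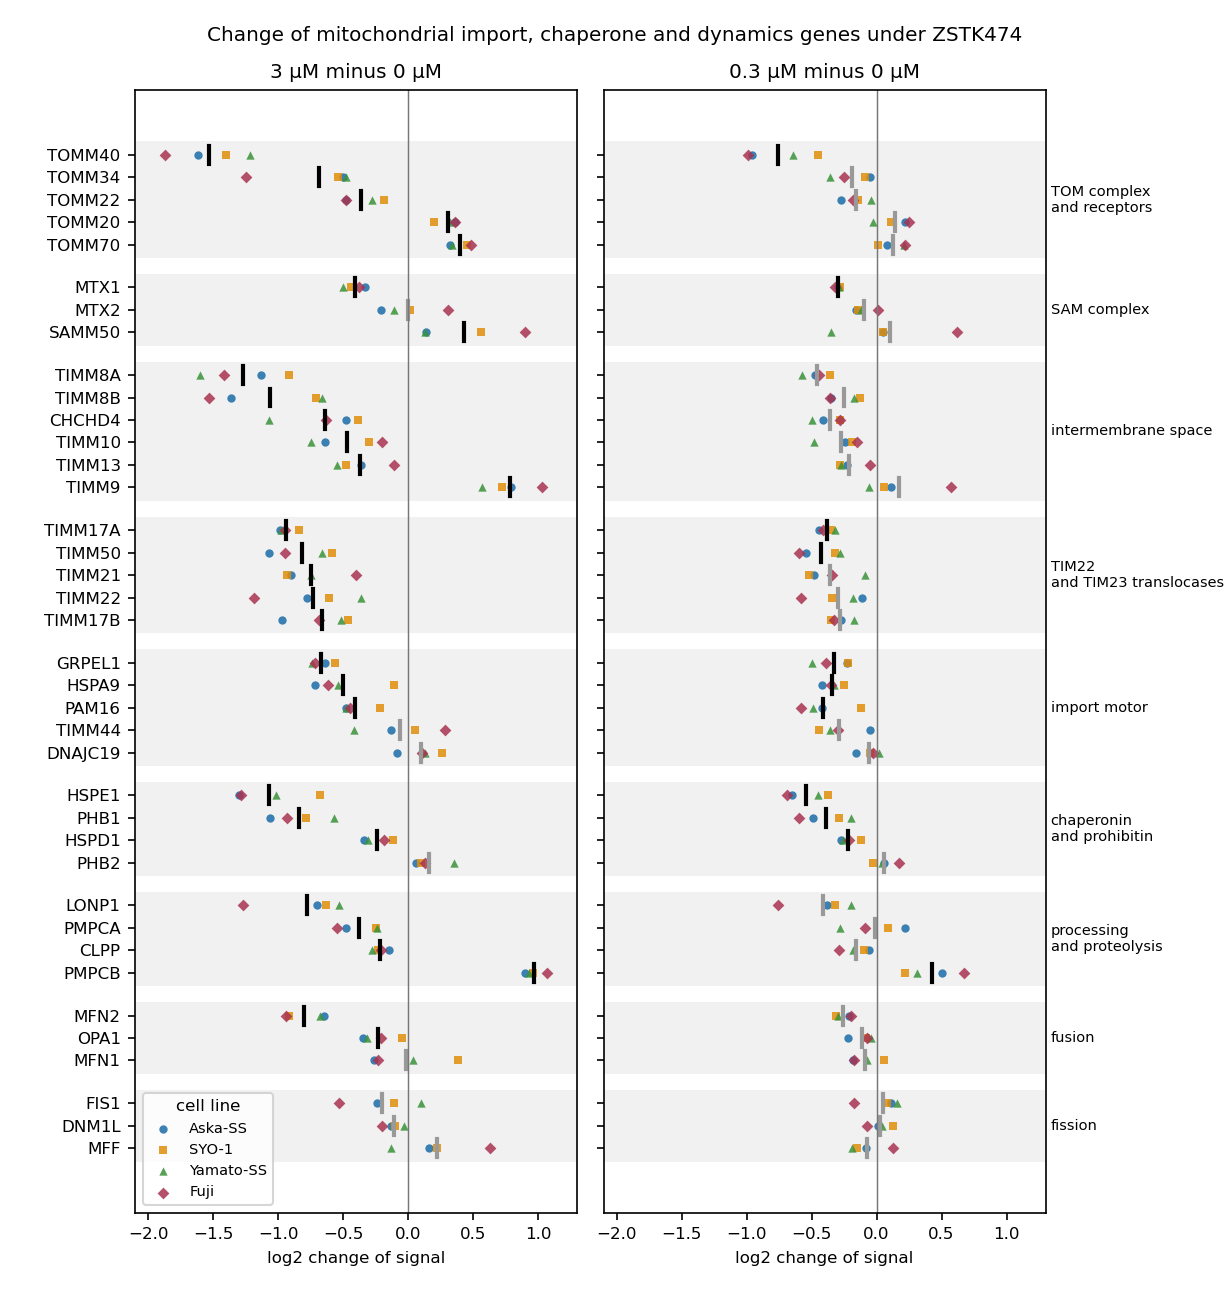
The log2 change of each of the 38 genes is shown at 3 µM minus 0 µM (left) and 0.3 µM minus 0 µM (right), with 1 point per cell line, a bar at the mean (black where the adjusted p was under 0.05, grey otherwise) and grey bands for the roles. At 3 µM, 25 means lie to the left of 0 in black and 5 to the right, and the fission genes have none in black.

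At 0.3 µM against 0 µM, 10 of the 38 genes were lower (3.35% of all genes) and 1 was higher (4.57% of all genes), with a median change of -0.23. The 10 were TOMM40, MTX1, TIMM17A, TIMM50, PAM16, GRPEL1, HSPA9, HSPD1, HSPE1 and PHB1, and the gene that rose was PMPCB. Leaving out Aska-SS left 0 lower genes of the 38, leaving out Fuji 2, leaving out SYO-1 4 and leaving out Yamato-SS 5, while the lower genes among all tested numbered 407 with the 4 lines and 0, 25, 104 and 140 in the same order. PMPCB did not pass without Aska-SS or without Fuji. Between 3 and 0.3 µM, 14 genes were lower (8.09% of all genes) and 3 were higher (7.25% of all genes), namely TOMM70, TIMM9 and PMPCB. The 14 became 5 without SYO-1, 7 without Aska-SS, 9 without Yamato-SS, 10 without Fuji and 9 with no filter on dim probe sets. The 982 lower genes of all tested became 347, 394, 603, 790 and 557 in that order. Without Fuji 2 of the 38 were higher, beside 661 of all genes. The comparisons share arrays, so they are not independent of each other. From 0 through 0.3 to 3 µM, 19 of the 38 genes fell at both steps in all 4 lines, as did 9.27% of all genes, and 2, PMPCB and TOMM70, rose at both steps in all 4, as did 9.36%. For 12 genes every 3 µM array lay below every 0 µM array (6.03% of all genes), and for TOMM20 and TIMM9 every 3 µM array lay above (5.3% of all genes).

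**Figure D2:**
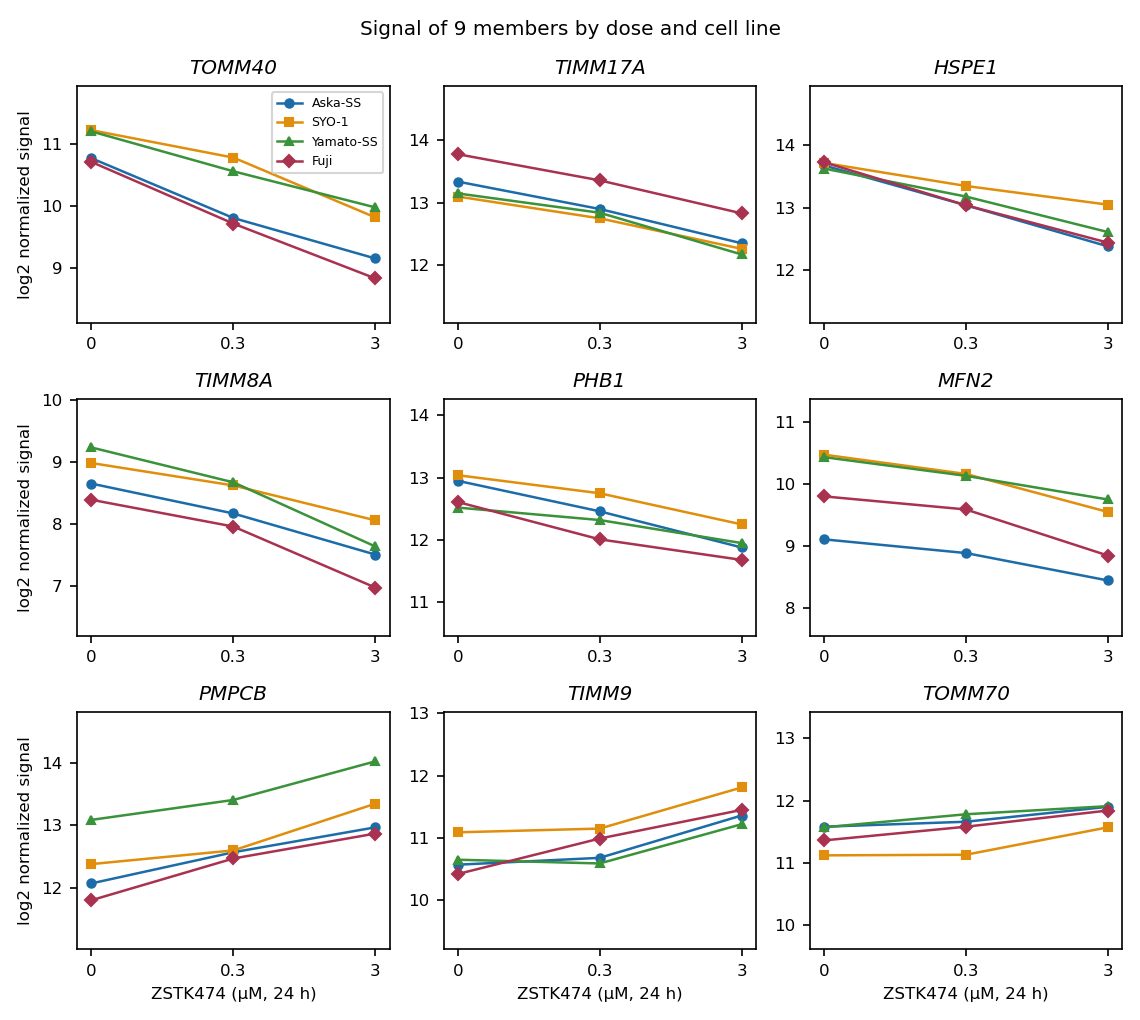
Log2 normalized signal of 9 genes is plotted against ZSTK474 dose (0, 0.3 and 3 µM, evenly spaced, 24 h), with 1 line per cell line and the same span on each vertical axis. The first 6 genes fall at both steps in all 4 cell lines, PMPCB and TOMM70 rise at both steps, and TIMM9 rises between 0.3 and 3 µM in all 4.

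Promoter sequences are shown for 4 genes that moved together or apart, since HSPE1 and LONP1 fell while TOMM20 and PMPCB rose. Each of the 4 holds a match to a motif listed below, while TIMM17A, TIMM8A, PHB1 and TIMM9, which also changed, hold none. The windows shown therefore do not tell how common matches are. The RefSeq promoter table (GRCh38.p14) held 37 of the 40 genes, and the 250 bases before each listed start were searched on both strands for 4 motifs. These were the E-box CACGTG, bound by MYC and related factors, the NRF1 motif (GCGCA, any base, then GCGC), the ETS core CCGGAAG, and the forkhead core GTAAACA, bound by FOXO factors, and no match of one overlapped a match of another in these windows. The windows below run 5′ to 3′ along the gene's strand, with the matches in capitals.
HSPE1 (chr2:197500129-197500378, plus strand): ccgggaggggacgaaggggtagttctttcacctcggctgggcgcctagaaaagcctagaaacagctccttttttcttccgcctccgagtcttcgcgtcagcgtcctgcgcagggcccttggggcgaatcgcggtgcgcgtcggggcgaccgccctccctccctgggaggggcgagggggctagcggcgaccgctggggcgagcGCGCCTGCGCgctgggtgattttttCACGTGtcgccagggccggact
LONP1 (chr19:5720147-5720396, minus strand): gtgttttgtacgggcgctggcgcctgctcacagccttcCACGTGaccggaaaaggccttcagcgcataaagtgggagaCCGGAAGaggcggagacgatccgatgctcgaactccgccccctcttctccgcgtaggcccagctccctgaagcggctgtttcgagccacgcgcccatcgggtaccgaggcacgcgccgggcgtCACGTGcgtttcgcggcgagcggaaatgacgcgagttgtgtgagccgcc
LONP1 (chr19:5720453-5720702, minus strand): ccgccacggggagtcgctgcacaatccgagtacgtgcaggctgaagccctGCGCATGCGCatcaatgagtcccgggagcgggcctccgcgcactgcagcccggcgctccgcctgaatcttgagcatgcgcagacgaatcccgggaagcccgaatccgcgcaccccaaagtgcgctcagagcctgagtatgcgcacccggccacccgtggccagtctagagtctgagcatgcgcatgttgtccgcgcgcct
TOMM20 (chr1:235128838-235129087, minus strand): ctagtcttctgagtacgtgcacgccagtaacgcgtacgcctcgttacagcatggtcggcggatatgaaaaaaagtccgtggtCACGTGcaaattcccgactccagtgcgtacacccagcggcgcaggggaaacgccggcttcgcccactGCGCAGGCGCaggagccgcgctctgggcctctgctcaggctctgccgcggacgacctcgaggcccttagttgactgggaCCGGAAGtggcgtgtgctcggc
PMPCB (chr7:103297185-103297434, plus strand): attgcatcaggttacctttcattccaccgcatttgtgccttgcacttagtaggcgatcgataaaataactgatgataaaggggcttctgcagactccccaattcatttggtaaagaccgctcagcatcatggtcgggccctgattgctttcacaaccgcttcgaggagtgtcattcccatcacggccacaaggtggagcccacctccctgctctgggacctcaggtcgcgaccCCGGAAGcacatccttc
The window of HSPE1 holds an NRF1 match and an E-box, and the neighbouring HSPD1 is transcribed the other way, so that 204 bases of the 300-base windows listed for the pair are the same stretch, and the E-box and NRF1 match printed for HSPE1 lie in it and were counted for both genes. LONP1 has 2 listed starts, the first with a pair of E-boxes and an ETS core and the second with an NRF1 match. TOMM20, which rose, holds an E-box, an NRF1 match and an ETS core, and PMPCB an ETS core alone. Over the 37 genes, 5 (13.5%) held an E-box, namely HSPA9, HSPD1, HSPE1, LONP1 and TOMM20, against 7.73% of all genes in the table and 11.6% of the genes tested. The NRF1 motif was in 10 (27.0%) of the 37, against 6.2% of all genes in the table and 12.2% of the genes tested. Of the 37, 22 were lower and 5 higher at 3 µM, and the NRF1 motif was in 8 of those 22 (HSPD1 and HSPE1 share 1 match) and 1 of those 5. The ETS core was in 10 (27.0%), against 10.2% and 19.1%, with 3 of the 22, 3 of the 5 and 3 of the 8 that did not pass. The NRF1 motif was in 0 of those 8. Neither motif was counted among all lower or all higher genes. The forkhead core was in 1, TIMM23, against 3.66% and 2.97%. A match is a run of letters and not evidence of binding. Both the genes and the motifs were chosen with earlier results of these data known.

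Of 5 genes of the outer membrane TOM complex and its cofactors, TOMM40, TOMM22 and TOMM34 were lower at 3 µM and TOMM20 and TOMM70 were higher. TOMM40, the pore itself, gave 10.77, 9.81 and 9.16 at 0, 0.3 and 3 µM in Aska-SS, 11.2, 10.56 and 9.98 in Yamato-SS, 11.22, 10.78 and 9.82 in SYO-1 and 10.71, 9.72 and 8.84 in Fuji. Every 3 µM array was below every 0 µM array. TOMM40 fell by 1.53 ± 0.12 (SE, n = 4), the largest change of the 38 genes, 0.347-fold with a limma adjusted p of 7.3e-06. TOMM20, the receptor for presequences, gave 14, 14.23 and 14.36 at the 3 doses in Aska-SS, 14.15, 14.12 and 14.48 in Yamato-SS, 14.1, 14.21 and 14.3 in SYO-1 and 13.92, 14.16 and 14.28 in Fuji. It was higher at 3 µM by 0.31 ± 0.059, with an adjusted p of 0.0013 in limma, and the 3 and 0 µM arrays did not overlap. TOMM70, the receptor for carrier preproteins, gave 11.58, 11.66 and 11.9 in Aska-SS, 11.57, 11.78 and 11.91 in Yamato-SS, 11.12, 11.13 and 11.57 in SYO-1 and 11.36, 11.58 and 11.84 in Fuji. Its rise of 0.40 ± 0.076 (limma adjusted p of 0.00139) was seen in each line, though its 3 and 0 µM arrays overlapped by the level of SYO-1. TOMM22, the central receptor, fell by 0.36 (adjusted p 0.00241), and its signal in Aska-SS was over 1 log2 unit below the other lines at 0 and 0.3 µM. TOMM34, a cytosolic cochaperone of preproteins, fell by 0.69 (adjusted p 0.00173), with -1.25 in Fuji where the others lay between -0.54 and -0.48.

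The SAM complex held 1 gene that fell, 1 that rose and 1 that did not pass. MTX1, a metaxin, gave 11.13, 10.83 and 10.8 in Aska-SS, 11.07, 10.78 and 10.57 in Yamato-SS, 11.45, 11.17 and 11.01 in SYO-1 and 11.57, 11.25 and 11.19 in Fuji. At 3 µM it fell by 0.41 ± 0.075 (limma adjusted p of 0.000998), and the lines were alike at 0.3 µM, between -0.32 and -0.28. SAMM50, the barrel protein of the complex, gave 10.74, 10.79 and 10.88 in Aska-SS, 11.44, 11.09 and 11.56 in Yamato-SS, 12.51, 12.56 and 13.07 in SYO-1 and 11.42, 12.04 and 12.31 in Fuji. It was 0.43 ± 0.14 higher (limma adjusted p of 0.0217), by 0.90 in Fuji and 0.13 in Yamato-SS, and the call was lost without SYO-1 or without Fuji. The second probe set of SAMM50 changed by 0.25 and did not pass (adjusted p 0.088 over 27306 probe sets). MTX2, the partner of MTX1, changed by 0.00 with a 95% interval of -0.20 to 0.19.

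In the intermembrane space 5 of 6 genes were lower at 3 µM and TIMM9 was higher. TIMM8A, a small TIM chaperone, gave 8.65, 8.17 and 7.51 in Aska-SS, 9.23, 8.67 and 7.64 in Yamato-SS, 8.98, 8.62 and 8.06 in SYO-1 and 8.39, 7.96 and 6.98 in Fuji. It fell by 1.27 ± 0.15 (limma adjusted p of 5e-05) and its 3 and 0 µM arrays did not overlap. TIMM8B, its paralog, gave 13.42, 13.08 and 12.07 in Aska-SS, 12.16, 11.99 and 11.49 in Yamato-SS, 12.88, 12.75 and 12.17 in SYO-1 and 13.28, 12.93 and 11.75 in Fuji. TIMM8B fell by 1.06 ± 0.13 (limma adjusted p of 6.87e-05), with -1.53 in Fuji and -0.66 in Yamato-SS, whose signal at 0 µM was the lowest. A second probe set of TIMM8B fell by 0.34. TIMM9, which works in a hexamer with TIMM10, gave 10.57, 10.68 and 11.36 in Aska-SS, 10.65, 10.59 and 11.22 in Yamato-SS, 11.09, 11.15 and 11.81 in SYO-1 and 10.42, 10.99 and 11.45 in Fuji. It rose by 0.78 ± 0.10 (limma adjusted p of 0.000113), and by 0.61 between 0.3 and 3 µM, with Fuji already 0.57 higher at 0.3 µM. TIMM10 moved the other way, by -0.64 in Aska-SS, -0.75 in Yamato-SS, -0.30 in SYO-1 and -0.20 in Fuji (limma adjusted p of 0.00165), a contrast with TIMM9 that was picked out after the values were seen and was not tested. CHCHD4, the oxidoreductase of the disulfide relay, fell by 0.64 (adjusted p 0.000887), with -1.07 in Yamato-SS. TIMM13, the partner of TIMM8A, fell by 0.37 (adjusted p 0.00251).

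All 5 TIM22 and TIM23 translocase genes tested were lower at 3 µM, and all 5 were also lower at 3 against 0.3 µM. Of these 5 step calls, only that of TIMM17A was kept in each alternative other than dropping the block, while TIMM22 and TIMM17B lost theirs when any 1 line was left out and TIMM21 and TIMM50 without Aska-SS, without SYO-1 or without Yamato-SS. With no filter on dim probe sets TIMM22, TIMM17B and TIMM21 lost the step call, with the mean of the probe sets TIMM21 and TIMM50, and without quantile normalization TIMM22. TIMM17A, a core subunit of the presequence translocase, gave 13.34, 12.9 and 12.35 in Aska-SS, 13.15, 12.84 and 12.17 in Yamato-SS, 13.1, 12.75 and 12.26 in SYO-1 and 13.78, 13.36 and 12.83 in Fuji. The lines differed little in its change, which lay between -0.99 and -0.84, with a mean of -0.94 ± 0.059 and the smallest limma adjusted p of the 38 genes, 4.93e-06. TIMM50, the presequence receptor of the inner membrane, gave 11.59, 11.05 and 10.51 in Aska-SS, 11.84, 11.56 and 11.18 in Yamato-SS, 12.04, 11.72 and 11.44 in SYO-1 and 11.74, 11.14 and 10.79 in Fuji. It fell by 0.82 ± 0.092 (limma adjusted p of 4.31e-05) with no overlap of the 3 and 0 µM arrays. TIMM21, which links the translocase to the respiratory chain, fell by 0.75, TIMM22, the carrier channel, by 0.73 and TIMM17B, the paralog of TIMM17A, by 0.66 (limma adjusted p of 0.000155, 0.000767 and 0.000416 in that order).

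The import motor held 3 genes that fell and 2 that did not pass at 3 µM. GRPEL1, the nucleotide exchange factor of mitochondrial HSP70, gave 10.91, 10.68 and 10.26 in Aska-SS, 11.35, 10.85 and 10.61 in Yamato-SS, 10.95, 10.73 and 10.39 in SYO-1 and 10.66, 10.28 and 9.94 in Fuji. It fell by 0.67 ± 0.084 (limma adjusted p of 9.05e-05), and the changes lay between -0.74 and -0.56 in the lines. HSPA9, mitochondrial HSP70 itself, gave 13.27, 12.85 and 12.55 in Aska-SS, 13.24, 12.91 and 12.71 in Yamato-SS, 13.44, 13.18 and 13.33 in SYO-1 and 13.03, 12.68 and 12.42 in Fuji. It fell by 0.50 ± 0.089 (limma adjusted p of 0.000875), with a change of -0.11 in SYO-1, where the signal at 3 µM was above that at 0.3 µM. PAM16, a regulator of the motor, was lower by 0.41 at each dose (limma adjusted p of 0.00926 at 3 µM and 0.0426 at 0.3 µM), and at 3 µM did not pass without Aska-SS. TIMM44, the anchor of the motor, changed by -0.06 (95% interval -0.34 to 0.23) and DNAJC19, a J protein, by 0.10 (-0.08 to 0.28).

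Among the matrix chaperonins and inner membrane prohibitins, 3 of 4 genes were lower at 3 µM. HSPE1, the HSP10 cochaperonin, gave 13.68, 13.04 and 12.38 in Aska-SS, 13.63, 13.18 and 12.61 in Yamato-SS, 13.72, 13.35 and 13.05 in SYO-1 and 13.73, 13.04 and 12.44 in Fuji. The lines lay between 13.63 and 13.73 at 0 µM, and all 3 µM arrays lay below all 0 µM arrays. HSPE1 fell by 1.07 ± 0.091 (limma adjusted p of 1.05e-05). HSPD1, the HSP60 chaperonin that HSPE1 caps, fell by 0.24 on its brightest probe set (limma adjusted p of 0.00159), whose signal lay between 14.7 and 15.12. Without quantile normalization HSPD1 changed by -0.03 at 3 µM (limma adjusted p of 0.798) and by -0.02 at 0.3 µM (limma adjusted p of 0.917), so neither call held. Its second probe set, averaging 14.16, fell by 0.29, while its dimmest tested one, averaging 7.82, fell by 1.26, so the gap between HSPD1 and HSPE1 depended on the probe set. PHB1, a prohibitin scaffold subunit, gave 12.95, 12.46 and 11.88 in Aska-SS, 12.52, 12.32 and 11.95 in Yamato-SS, 13.04, 12.75 and 12.25 in SYO-1 and 12.61, 12.01 and 11.68 in Fuji. It fell by 0.84 ± 0.085 (limma adjusted p of 2.59e-05). PHB2, its partner subunit, stood 0.16 above the 0 µM level (95% interval 0.02 to 0.30) and did not pass over all genes (limma adjusted p of 0.0668).

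The processing peptidase split by subunit. PMPCB, the catalytic beta subunit, gave 12.07, 12.57 and 12.97 in Aska-SS, 13.09, 13.41 and 14.03 in Yamato-SS, 12.38, 12.6 and 13.35 in SYO-1 and 11.8, 12.47 and 12.87 in Fuji. It rose by 0.97 ± 0.079, 1.95-fold (limma adjusted p of 8.52e-06), by 0.90 to 1.07 in the lines, while the high level of Yamato-SS made the doses overlap. PMPCA, the alpha subunit, fell by 0.38 (limma adjusted p of 0.0172) and did not pass without Aska-SS or without Fuji. LONP1, a matrix protease, gave 10.6, 10.22 and 9.9 in Aska-SS, 10.15, 9.95 and 9.62 in Yamato-SS, 10.64, 10.32 and 10.02 in SYO-1 and 10.9, 10.15 and 9.63 in Fuji. It fell by 0.78 ± 0.12 (limma adjusted p of 0.000304), with -1.27 in Fuji and -0.70 to -0.53 elsewhere. CLPP, the other matrix protease, fell by 0.22 (limma adjusted p of 0.0418), a call that was lost when any 1 line was left out.

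Of the fusion genes, MFN2 and OPA1 fell and MFN1 did not pass. MFN2, an outer membrane mitofusin, gave 9.11, 8.89 and 8.45 in Aska-SS, 10.43, 10.13 and 9.75 in Yamato-SS, 10.47, 10.16 and 9.55 in SYO-1 and 9.8, 9.59 and 8.85 in Fuji. Its lines differed more at 0 µM, by 1.36, than the dose moved them, and within each line it fell, by 0.80 ± 0.10 on average (limma adjusted p of 9.81e-05). OPA1, the inner membrane fusion GTPase, gave 10.74, 10.52 and 10.39 in Aska-SS, 10.91, 10.87 and 10.59 in Yamato-SS, 10.7, 10.61 and 10.65 in SYO-1 and 10.69, 10.62 and 10.48 in Fuji. OPA1 fell by 0.23 ± 0.087 (limma adjusted p of 0.0458), a call that was lost without Aska-SS, without Yamato-SS or without Fuji, and its other 2 probe sets above the filter changed by -0.10 each and did not pass. The array's design marks the brightest probe set of OPA1 as holding probes that may also bind other transcripts. MFN1, the paralog of MFN2, changed by -0.26 in Aska-SS, 0.04 in Yamato-SS, 0.38 in SYO-1 and -0.23 in Fuji.

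None of the 3 fission genes passed in any comparison by its brightest probe set. At 3 µM 21.1% of all genes tested were lower and 22.6% higher, so with 3 genes this count says little about fission. Of 17 other fission, fusion and transport genes, 6 were lower and 2 higher at 3 µM. FIS1, an outer membrane fission factor, gave 12.28, 12.39 and 12.04 in Aska-SS, 12.76, 12.92 and 12.87 in Yamato-SS, 12.3, 12.38 and 12.18 in SYO-1 and 12.27, 12.1 and 11.74 in Fuji. The change was -0.20 (95% interval -0.39 to 0.00, limma adjusted p of 0.0996), lower in 3 of 4 lines. MFF, the receptor of DRP1, gave 10.94, 10.86 and 11.1 in Aska-SS, 11.26, 11.07 and 11.14 in Yamato-SS, 11.66, 11.52 and 11.88 in SYO-1 and 11.58, 11.71 and 12.22 in Fuji. Its change of 0.22 (-0.01 to 0.45, limma adjusted p of 0.111) was higher in 3 of 4 lines. DNM1L, which encodes the DRP1 GTPase, changed by -0.11 (-0.26 to 0.03). Without quantile normalization DNM1L and FIS1 did pass as lower at 3 µM, by -0.22 and -0.26 (limma adjusted p of 0.0241 and 0.0395), and with the mean of the probe sets DNM1L passed at -0.32 and MFF at 0.34 (limma adjusted p of 0.00526 and 0.0122). Other probe sets gave different calls, since the second probe set of DNM1L fell by 0.52 (limma adjusted p of 0.0012) and 2 dimmer probe sets of MFF rose by 0.61 and 0.37 (adjusted p 0.00038 and 0.0284). The array's design marks those 2 of MFF as holding probes that may also bind other transcripts.

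**Figure D3:**
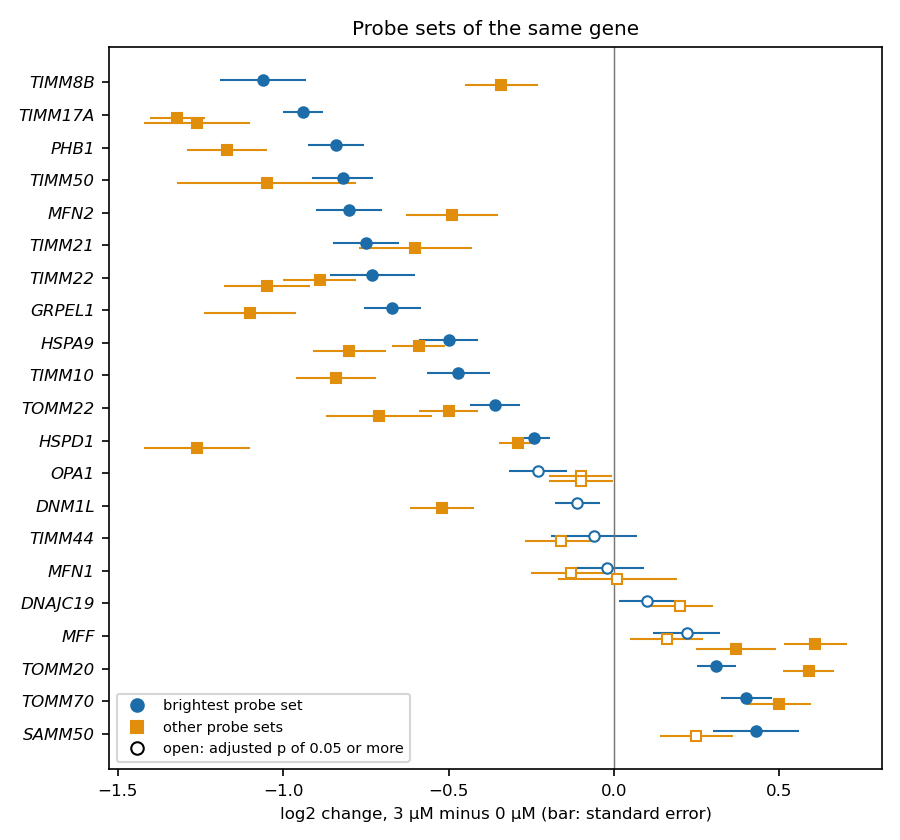
The log2 change at 3 µM minus 0 µM is shown for the 21 genes with more than 1 probe set above the filter, as circles for the brightest probe set and squares for the others, open where the adjusted p over 27306 probe sets was 0.05 or more, with standard errors. No gene has filled symbols on both sides of 0, while HSPD1, TIMM8B, DNM1L and MFF have probe sets far apart.

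Probe sets of a gene shared their call in 18 of those 21 genes, and in 0 did probe sets pass in opposite directions. The 3 that differed were SAMM50, DNM1L and MFF. OPA1, which passed among genes, did not when the adjustment ran over probe sets (limma adjusted p of 0.0515 for its brightest one). Of 13 genes that fell and had several probe sets, the brightest one showed the smallest change in 9, TIMM17A among them with -0.94 against -1.32 and -1.26, and the largest in 4. 

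The 6 pairs of paralogs or partners were compared within lines by an exact two-sided sign-flip permutation test, in which 4 lines can give no p below 0.125. PMPCA minus PMPCB averaged -1.34 ± 0.20 (SD, n = 4), PHB1 minus PHB2 -1.0 ± 0.11, HSPD1 minus HSPE1 0.83 ± 0.24, MFN1 minus MFN2 0.78 ± 0.38 and TIMM17A minus TIMM17B -0.28 ± 0.19. Each of these 5 had 1 sign in all 4 lines and the exact p of 0.125, adjusted to 0.15 over the 6 pairs. TIMM8A minus TIMM8B averaged -0.20 ± 0.52 and lay below 0 in 2 of 4 lines (exact p of 0.75), between -0.93 and 0.22.

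**Figure D4:**
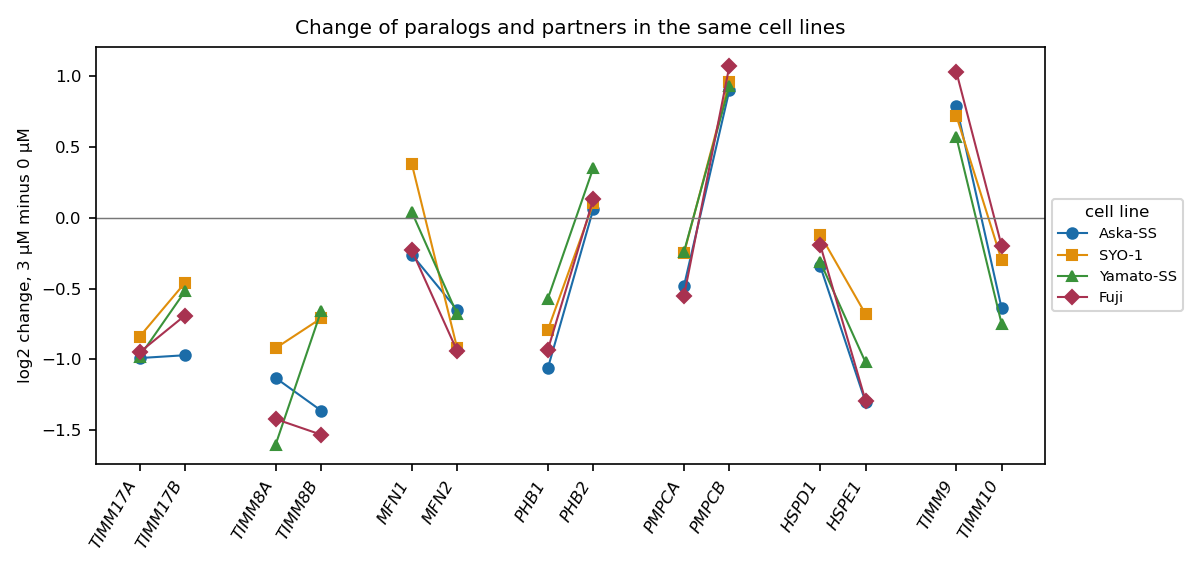
The log2 change at 3 µM minus 0 µM is plotted for the members of 7 pairs, with 1 line per cell line. PMPCA and PMPCB lie on opposite sides of 0 in all 4 lines, as do TIMM10 and TIMM9 and PHB1 and PHB2, and the lines of TIMM8A and TIMM8B cross.

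An interaction term in limma set the response to 3 µM in the 2 SS18-SSX1 lines against that in the 2 SS18-SSX2 lines. Of the 12132 genes 0 passed (0%), and so did 0 of the 38. At an unadjusted p under 0.05 there were 2 of the 38 and 785 of all genes, and the smallest adjusted p among the 38 was 0.763. The median half-width of the 95% interval of the difference was 0.427 on the log2 scale.

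The range over the 4 lines at 0 µM had a median of 0.64 for the 38 genes and 0.97 for all genes. It was wider than the 3 µM change in 24 of the 38 (10426 of 12132 overall), with SAMM50 at 1.77, MFN2 at 1.36 and PMPCB at 1.29.

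Of 52 other mitochondrial genes of import, quality control, cristae and dynamics, 49 were tested, and at 3 µM 21 were lower and 6 higher (21.1% and 22.6% of all genes), with a median change of -0.17. MICOS10, a core subunit of the cristae complex MICOS, fell by 0.96 (adjusted p 6.47e-06). TOMM5, a small TOM subunit, fell by 0.92 (adjusted p 7.3e-06), and MTCH2, an outer membrane insertase, by 1.26 (adjusted p 1.05e-05). HSCB, a cochaperone of iron-sulfur cluster assembly, rose by 0.54 (adjusted p 0.00074), HTRA2, an intermembrane space protease, by 0.57 (adjusted p 0.00126) and MIEF2, a DRP1 receptor, by 0.57 (adjusted p 0.00338). By list, 8 of 15 other import genes, 2 of 10 chaperones and quality control proteases, 5 of 7 MICOS genes and 6 of 17 fission, fusion and transport genes were lower. At 0.3 µM 7 of the 49 were lower and 0 higher (3.35% and 4.57% of all genes).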

How the data were processed

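Gene expression was measured in 4 cell lines at 3 doses on 12 Affymetrix U133 Plus 2.0 arrays of 54675 probe sets. The authors deposited 1 linear intensity per probe set and array, computed with MAS5 per the labels, and the median deposited intensity was 60.1 to 85.3. From 0 to 3 µM this median went from 66.4 to 85.3 in Aska-SS and from 60.1 to 73.2 in Yamato-SS. In SYO-1 it went from 64.7 to 76.3 and in Fuji from 70.6 to 71. Precision is limited by the number of arrays. The study's methods describe quantile normalization in GeneSpring, so the intensities were quantile normalized, raised to a floor at the 20th percentile (12.1), converted to log2, and stripped of 62 control probe sets. Probe sets with a mean above the median (log2 6.03) were kept, and each gene was represented by its brightest probe set with 1 symbol, which 41097 probe sets had, while 1801 had several and 11777 none. Doses were compared with limma 3.58.1 (R 4.3.3; lmFit and eBayes with trend), with cell line as a block because the labels pair arrays of 1 line, and p-values were adjusted over all 12132 genes. The fit was tested on simulated data. Errors are standard errors unless marked SD, and intervals are 95%.

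All 40 genes were accounted for. Values on all arrays were given for the 2 genes of each role with the smallest adjusted p at 3 µM and for each gene that rose, and of the other mitochondrial genes the 3 with the smallest adjusted p in each direction were named. The genes, lists, markers and motifs were chosen with earlier results of these data known. A listed marker is not reported here. Alternatives covered normalization, floor, filter, probe set choice, the block, the arrays in the fit and each line left out. Gene symbols came from the platform annotation, and promoter sequences from RefSeq (GRCh38.p14).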

Additional observations from a re-analysis of the deposited data

Results flagged for a closer look

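Of 228 groups of 4 values examined (levels at a dose or changes in the 4 lines), 10 held a line far from the other 3, and chance alone flags about 1 in 20 groups. The groups share arrays and are not independent, so that rate is only a rough guide. For changes, TOMM20 rose between 0.3 and 3 µM by 0.36 in Yamato-SS against 0.09 to 0.13 in the other lines, and LONP1 changed by -0.51 in Fuji against -0.33 to -0.31. At 3 against 0 µM, TOMM34 changed by -1.25 in Fuji against -0.54 to -0.48, and PAM16 by -0.22 in SYO-1 against -0.48 to -0.45. For levels, TOMM22 stood at 11.32 at 0 µM and 11.05 at 0.3 µM in Aska-SS, against 12.44 to 12.6 and 12.28 to 12.46 in the other lines. Yamato-SS was apart for PHB2 at 0.3 µM (13.85 against 13.96 to 13.97), PMPCB at 0.3 µM (13.41 against 12.47 to 12.6) and FIS1 at 0 µM (12.76 against 12.27 to 12.3). SYO-1 was apart for MFN1 at 0.3 µM (10.93 against 10.75 to 10.76).

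For 2 genes both lines with SS18-SSX1 moved one way and both with SS18-SSX2 the other, by sign alone. In SYO-1 the change at 3 against 0 µM was only 0.01 for MTX2 and 0.05 for TIMM44. No share over all genes is given for this split. The difference of SS18-SSX1 minus SS18-SSX2 lines was -0.32 for MTX2 and -0.44 for TIMM44 at 3 against 0 µM, and neither passed the interaction test over all genes. For TIMM44 it was -0.61 at 3 against 0.3 µM, where the difference was not tested.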

How the results depend on the processing

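Of the 30 genes called at 3 against 0 µM, 26 to 30 kept their call under each alternative other than dropping the block. Without quantile normalization, which put the median of all genes at 0.09, HSPD1 was lost (-0.03) and DNM1L (-0.22) and FIS1 (-0.26) newly passed, with no filter SAMM50, with the mean of the probe sets OPA1 (DNM1L and MFF newly passing), and with the arrays of the 2 doses alone CLPP and OPA1. With no replicate block, that is, ignoring the pairing of arrays by cell line, 7 genes were lower and 0 higher at 3 µM, and 0 were lower and 0 higher in the other comparisons, while 19, 4 and 9 of the 38 had an unadjusted p under 0.05 at 3 against 0, 0.3 against 0 and 3 against 0.3 µM, beside 2157, 319 and 620 of all 12132. Over all genes that fit called 209 lower and 174 higher at 3 µM and 0 in the other comparisons. With no filter, where more genes were tested (19775), 3 of the 38 were lower and 0 higher at 0.3 µM, beside 41 and 58 of all genes. At 3 against 0.3 µM that setting gave 9 lower, beside 557 of all genes. With the 2 doses alone, 5 were higher at 3 against 0.3 µM, beside 1207 of all 12132 genes (880 in the main fit). Leaving out 1 line gave 21 to 24 lower and 4 to 6 higher genes at 3 µM, 0 to 5 lower and 0 to 1 higher at 0.3 µM, and 5 to 10 lower and 2 higher at 3 against 0.3 µM. Over all genes the same fits gave 2014 to 2367 lower and 2231 to 2524 higher at 3 µM, 0 to 140 lower and 1 to 213 higher at 0.3 µM, and 347 to 790 lower and 246 to 661 higher at 3 against 0.3 µM. The difference by fusion gene stayed at 0 genes in each of its alternatives. TIMM8A minus TIMM8B turned to 0.02 without quantile normalization and to 0.04 without Yamato-SS, its range over left-out lines being -0.34 to 0.04. With the mean of the probe sets it was -0.56 (adjusted p 0.125), TIMM17A minus TIMM17B -0.51 and HSPD1 minus HSPE1 0.47. Of the values of single genes over the alternatives, 1177 kept their direction and side of the threshold, 150 no longer passed, 23 newly passed and 18 changed sign, none of these passing on either side. At 0.3 against 0 µM the sign changed without quantile normalization for DNM1L (-0.03) and FIS1 (0.00), with the mean of the probe sets for DNAJC19 (0.10), DNM1L (-0.10) and MFF (0.09), without SYO-1 for DNM1L (-0.01), without Yamato-SS for PMPCA (0.07) and without Fuji for PMPCA (0.01) and SAMM50 (-0.08). At 3 against 0 µM it changed without Aska-SS for MTX2 (0.07) and MFN1 (0.06), without Yamato-SS for MTX2 (0.04) and TIMM44 (0.07) and without Fuji for MFN1 (0.05). At 3 against 0.3 µM it changed for PAM16 without quantile normalization (0.04), without Aska-SS (0.02) and without SYO-1 (0.03), and for MFN1 without SYO-1 (-0.01). The cause was not tested.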
